A study of Mus musculus with 37 samples.

Results

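A set of 10 genes of the circadian clock was followed library by library in liver RNA of C57BL/6 mice at 2 months of age. They are Arntl, Clock, Npas2, Per1, Per2, Per3, Cry1, Nr1d1, Nr1d2 and Dbp. The rows were matched by symbol, and all 10 were found among the 24421 gene rows of every one of 37 libraries. All 10 also passed the filter on low counts, with 15152 genes in all. The mice were wild type (WT) or carried a substitution of a tyrosine of STAT5B, to phenylalanine (Y665F) or to histidine (Y665H). There were 6 WT, 9 Y665F and 4 Y665H libraries from males, and 6 WT, 6 Y665F and 6 Y665H libraries from females. STAT5B is the transcription factor that carries growth hormone signals into the liver nucleus, and this tyrosine lies in its SH2 domain, which binds phosphorylated tyrosines. Whether the mice carried the substitution on 1 allele or on both, at what hour the livers were taken, and when the mice had last fed are not given in the sources used here. Replicates are numbered libraries of a group, and nothing in the labels says outright that each came from a separate mouse, so p-values measure only the spread between these libraries.

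The mammalian clock is a loop of transcription that takes about a day. ARNTL (also called BMAL1) pairs with CLOCK or with its relative NPAS2 and activates genes through E-box sequences, among them the Per and Cry genes, the Nr1d genes and Dbp. The PER and CRY proteins return to the nucleus and inhibit the ARNTL pair. The nuclear receptors encoded by Nr1d1 and Nr1d2 (REV-ERB alpha and beta) repress Arntl, Npas2 and, more weakly, Clock through RORE sequences. DBP is an output factor that activates other genes, Per genes included, through D-box sequences. In liver, Arntl and Npas2 RNA are therefore abundant at the opposite time of day from Dbp, Nr1d1 and the Per genes, and a single dissection an hour or so earlier or later gives other levels. Collection time is not labelled, so a difference between groups in clock RNA and a difference in the hour of collection cannot be told apart in any comparison below.

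Short sequence matches near the transcription start sites are shown because E-boxes, D-boxes and ROREs are the letters through which these genes are known to act on each other, and GAS is the kind of site that STAT5 binds. RefSeq start windows on GRCm38.p6 (250 bases before to 50 after a start) were held for 9 of the 10 genes, 13 windows in all. Per2 had no window. Both strands were searched for an E-box (CACGTG), a D-box (TTATGTAA or TTACGTAA), an RORE (TAGGTCA or TGGGTCA) and a GAS site (TTCNNNGAA). None of these letter patterns overlapped another in a member window. In GENCODE M21 on the same build the genes lie at chr7:113207465-113314126 (Arntl), chr5:76209868-76304792 (Clock), chr1:39193731-39363236 (Npas2), chr11:69095217-69109960 (Per1), chr1:91415982-91459324 (Per2), chr4:151003652-151044665 (Per3), chr10:85131700-85185064 (Cry1), chr11:98767932-98775333 (Nr1d1), chr14:18204054-18239127 (Nr1d2) and chr7:45705088-45710203 (Dbp). Capitals mark the match, and each sequence is written 5′ to 3′ on the strand of its gene. The first is the 250 bases before the first RefSeq start of Per1, at 69098949 (chr11:69098699-69098948, plus strand), with an E-box at -166 to -161. The second is the 250 bases before the Per3 start (chr4:151044666-151044915, minus strand), with D-boxes at -205 to -198 and -158 to -151. The shorter ones are the E-box of Cry1 (chr10:85185099-85185124, minus strand, -60 to -55), the RORE of Arntl (chr7:113207531-113207557, plus strand, +31 to +37 from its second RefSeq start at 113207511) and the GAS match of Dbp (chr7:45705138-45705166, plus strand, -99 to -91 from its RefSeq start at 45705247). The starts used for Per1, Cry1, Arntl and Dbp lie inside the GENCODE spans above, that of Per1 farthest.
Per1: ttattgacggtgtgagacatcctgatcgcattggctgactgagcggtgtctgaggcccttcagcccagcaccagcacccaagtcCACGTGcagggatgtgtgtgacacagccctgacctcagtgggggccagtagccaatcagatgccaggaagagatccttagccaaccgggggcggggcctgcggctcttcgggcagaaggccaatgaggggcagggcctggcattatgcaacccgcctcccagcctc
Per3: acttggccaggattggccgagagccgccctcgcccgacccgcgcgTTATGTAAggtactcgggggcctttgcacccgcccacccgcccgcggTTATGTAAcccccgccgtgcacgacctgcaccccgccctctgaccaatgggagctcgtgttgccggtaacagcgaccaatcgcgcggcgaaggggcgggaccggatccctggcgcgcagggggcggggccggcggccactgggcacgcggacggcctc
Cry1: tgccggtggtCACGTGgggtgcatgc
Arntl: aggcagaaagTAGGTCAgggacggagg
Dbp: atttttttttTTCCGCGAAagaagtttgc
Of all 32851 RefSeq windows, 7.15% held the E-box, 1.06% the D-box, 6.45% the RORE and 8.30% the GAS pattern. Counted over the 27025 genes with a window, the shares were 8.09%, 1.23%, 7.35% and 9.55%. Among the 9 genes with a window, 2 held an E-box (Per1 and Cry1), 1 a D-box (Per3), 1 an RORE (Arntl) and 2 a GAS pattern (Dbp and a second start of Per1). A match describes letters only, and a window without one says nothing of sites elsewhere.

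Counts assigned to genes ranged from 49141951 to 73937726 per library in males and from 24388434 to 40864173 in females. These depths do not overlap, so sex and any processing that follows it cannot be told apart. The share of counted items in no annotated gene was 11.9% to 19.9% over male and 7.21% to 15.8% over female libraries, with WT males at 17.3% to 19.8% and WT females at 9.59% to 14.7%. Levels below are CPM, counts divided by library size with the TMM factor, which corrects that size for a few very abundant genes, and multiplied by 1e+06. All 10 hepatocyte markers were detected, and their summed level was 104822 to 114786 CPM in WT males, 160692 to 176914 in Y665F males and 95858 to 116175 in Y665H males. In females it was 134641 to 160287 CPM (WT), 231502 to 268810.1 CPM (Y665F) and 124657 to 163049 CPM (Y665H). Alb had the most counts of these markers (170933466 over all libraries), with Trf next (37082742). Stat5b RNA was measured at 72.5 to 114 CPM over all groups. This is no check of the substitution, which changes the protein. A bulk liver level cannot tell fewer cells of a type from less RNA per cell. Replicate 2 of the Y665H males stood apart from its group in several clock genes, and values are given without it where it moved a result by much.

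**Figure D1:**
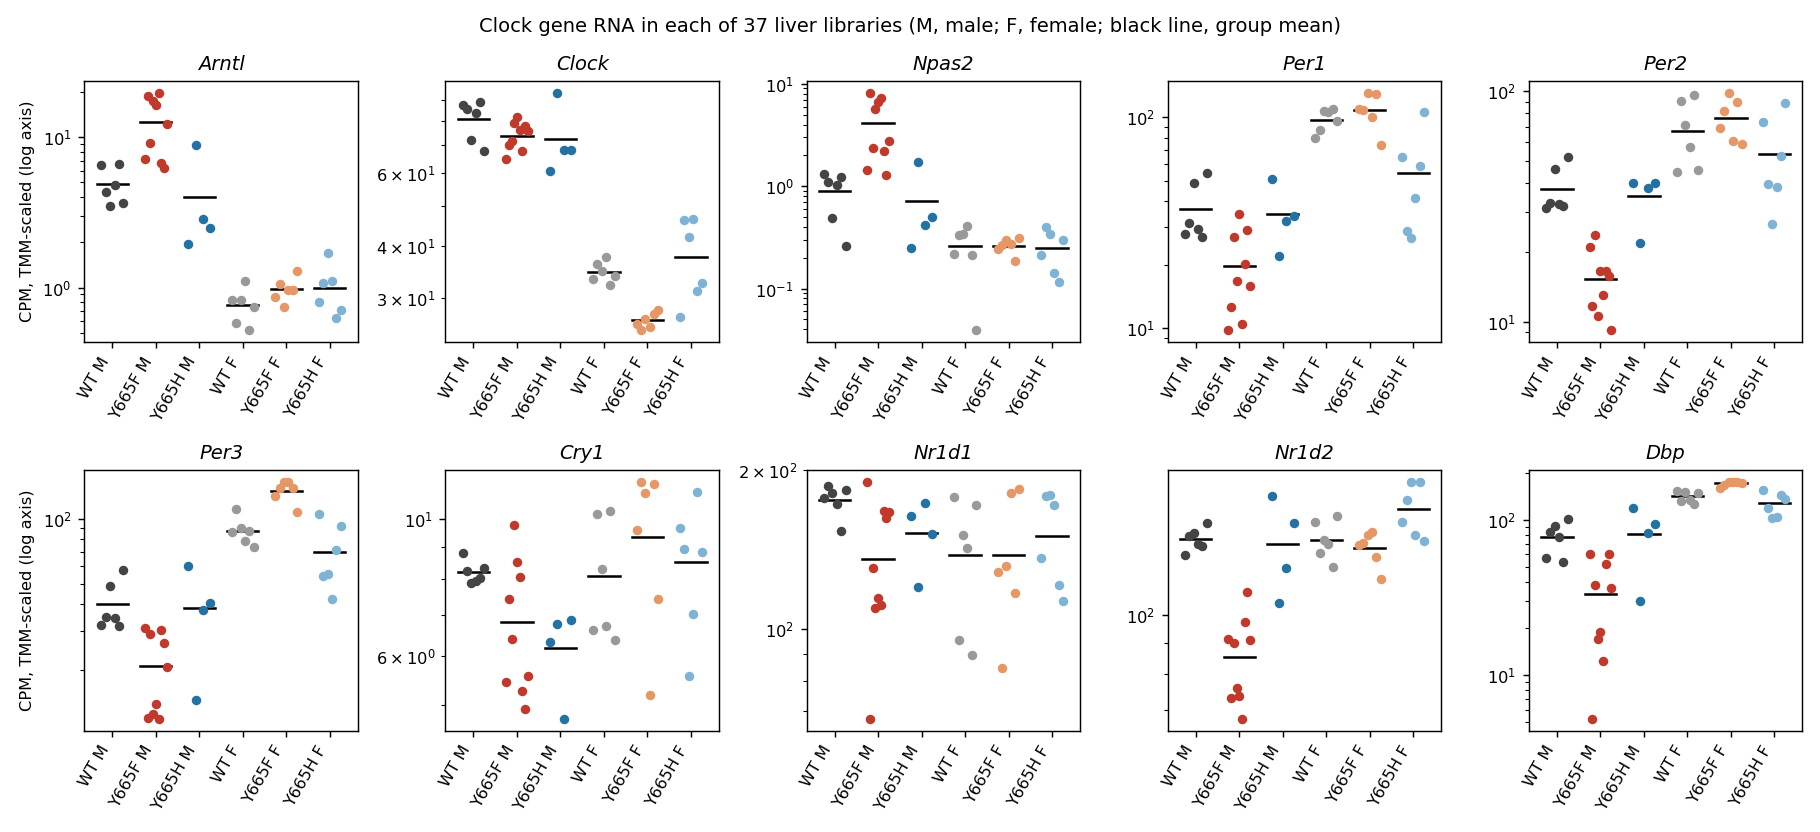
Each panel is a clock gene, each dot a liver library and each black line a group mean, on a logarithmic axis of TMM-scaled CPM. Arntl lay between 6.25 and 19.7 CPM in the 9 Y665F males, and at most at 1.69 CPM in any female library.

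Among the activator genes, Arntl and Clock had separate male and female ranges, and Arntl and Npas2 had their highest means in Y665F males. Arntl had a lowest, median and highest level of 3.48, 4.59 and 6.61 CPM in WT males, and of 6.25, 12.3 and 19.7 CPM in Y665F males. The 4 Y665H males had 1.95, 8.82, 2.85 and 2.50 CPM. Females were far lower, at 0.522, 0.788 and 1.11 CPM in WT, 0.744, 0.964 and 1.30 CPM in Y665F, and 0.631, 0.932 and 1.69 CPM in Y665H. Every male library thus lay above every female library for Arntl, and Y665F males overlapped WT males only at their low end. Npas2, the CLOCK relative, was the least abundant member. Its lowest, median and highest levels were 0.260, 1.06 and 1.32 CPM in WT males and 1.28, 2.79 and 8.15 CPM in Y665F males. Y665H males had 0.250, 1.72, 0.417 and 0.502 CPM. Female levels were 0.0393 to 0.405 CPM over the 3 genotypes, which rest on 1 to 16 counts per library and are imprecise. Clock itself had 68.0, 84.6 and 88.9 CPM in WT males, 64.9, 75.6 and 81.7 CPM in Y665F males, and 60.6, 93.6, 68.1 and 68.1 CPM in Y665H males. WT females had 32.2, 34.4 and 37.6 CPM, Y665F females 25.1, 26.3 and 28.1 CPM, and Y665H females 26.9, 37.4 and 46.5 CPM. The male and female ranges of Clock did not meet, and Y665F females lay wholly below WT females.

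The Per genes, whose proteins inhibit the ARNTL pair, ran the other way. Per1 had 27.1, 30.5 and 54.6 CPM (lowest, median, highest) in WT males and 9.80, 16.8 and 34.9 CPM in Y665F males. Y665H males had 51.0, 22.1, 32.4 and 34.1 CPM. Among females, WT had 79.2, 101 and 109 CPM, Y665F 73.8, 108 and 130.2 CPM, and Y665H 26.8, 50.2 and 106 CPM. The wide range in Y665H females overlapped both the other female groups and the males. Per2 had 31.0, 32.5 and 52.0 CPM in WT males against 9.21, 15.8 and 23.8 CPM in Y665F males, with no overlap. The Y665H males had 40.0, 21.9, 38.1 and 40.1 CPM. Females had 44.6, 64.0 and 96.2 CPM in WT, 59.2, 75.5 and 98.1 CPM in Y665F, and 26.5, 45.9 and 89.0 CPM in Y665H. For Per3, WT males had 31.9, 34.8 and 57.9 CPM and Y665F males 11.8, 20.6 and 31.0 CPM, again with no overlap. The Y665H males had 60.5, 14.5, 37.7 and 40.8 CPM. Female levels of Per3 were 73.5, 87.0 and 111 CPM in WT, 107, 139 and 148 CPM in Y665F, and 42.5, 63.5 and 105 CPM in Y665H. Y665F females were thus highest and Y665F males lowest in mean level for all 3 Per genes.

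Cry1, the other kind of inhibitor in the set, ran from 4.75 to 11.5 CPM over all libraries. It had 7.88, 8.13 and 8.81 CPM in WT males, 4.92, 6.41 and 9.77 CPM in Y665F males, and 6.32, 6.78, 4.75 and 6.88 CPM in Y665H males. Females had 6.37, 7.51 and 10.3 CPM in WT, 5.20, 10.3 and 11.5 CPM in Y665F, and 5.57, 8.89 and 11.0 CPM in Y665H. No pair of neighbours in the order of its group means was separated in range. For the REV-ERB gene Nr1d1, levels were 153, 179 and 187 CPM in WT males, 67.8, 131 and 190.2 CPM in Y665F males, and 164, 120.3, 173 and 152 CPM in Y665H males. Females had 89.4, 147 and 178 CPM in WT, 84.6, 130.2 and 184 CPM in Y665F, and 113, 154 and 179.7 CPM in Y665H. All 6 ranges of Nr1d1 overlapped. Its partner Nr1d2 had 125, 133 and 142 CPM in WT males, 67.7, 90.2 and 109 CPM in Y665F males, and 157, 105, 119.5 and 141 CPM in Y665H males. Females had 119.9, 132 and 145 CPM in WT, 114, 131 and 137 CPM in Y665F, and 132, 148 and 165 CPM in Y665H. The low Y665F males were the 1 group that stood off from the rest in mean, and only the lowest Y665H male fell into their range.

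Dbp, the output gene, had 53.8, 80.8 and 102 CPM in WT males. The 9 Y665F males, in order of replicate number, had 60.3, 5.23, 38.2, 17.0, 19.0, 12.4, 52.0, 60.2 and 36.7 CPM. Y665H males had 119.6, 30.0, 81.9 and 94.8 CPM. Females had 127, 142 and 155 CPM in WT, 162, 174 and 177 CPM in Y665F, and 104, 129 and 157 CPM in Y665H. The highest library of the Y665F males had 11.5 times the Dbp of the lowest, against 1.89 times in WT males and 1.09 times in Y665F females. Exons of Dbp share 539 bases (18.0% of its exon length) with Sphk2 on the opposite strand, and those of Nr1d1 share 263 bases (8.55%) with Thra. Whether counting used strand is not given in the sources used here, so part of the Dbp and Nr1d1 counts may belong to those neighbours. Per kilobase of exon, which allows genes to be compared, WT males had 57.1 ± 3.93 (SD, n = 6) CPM of Nr1d1, 26.0 ± 6.38 of Dbp, 24.6 ± 1.06 of Nr1d2, 0.654 ± 0.184 of Arntl and 0.189 ± 0.0891 of Npas2.

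Y665F was compared with WT in males by edgeR's quasi-likelihood test, with Benjamini-Hochberg adjustment over all genes tested. Arntl and Npas2 were higher and the 3 Per genes, Nr1d2 and Dbp were lower. Thus 7 of the 10 members passed, 2 higher and 5 lower, in a comparison that called 52.5% of all genes, 27.2% higher and 25.3% lower. Arntl rose by 1.37 on the log2 scale (SE 0.27, adjusted p = 7.18e-05, 2.58-fold), with 9 of 9 libraries above the WT mean. Npas2 rose by 2.21 (SE 0.40, adjusted p = 1.52e-05, 4.64-fold), also in 9 of 9. Among the inhibitors, Per2 fell by 1.29 (SE 0.22, adjusted p = 7.58e-06), Per3 fell by 0.94 (SE 0.24, adjusted p = 0.00106) and Per1 fell by 0.90 (SE 0.26, adjusted p = 0.00367), each with 0 of 9 libraries above the WT mean. Nr1d2 fell by 0.64 (SE 0.08, adjusted p = 5.90e-08) and Dbp fell by 1.22 (SE 0.30, adjusted p = 0.00103), again with 0 of 9 above. Clock, Cry1 and Nr1d1 did not pass. Their 95% intervals were -0.32 to 0.05, -0.58 to 0.05 and -0.73 to -0.02. The ranges of the 2 groups did not overlap for 3 members (Per2, Per3 and Nr1d2), all lower, against 26.4% of all genes, 14.2% higher and 12.2% lower. With the share of counted items in no annotated gene as a covariate, Per1 no longer passed (-0.60, adjusted p = 0.0605) and Nr1d1 did (-0.64, adjusted p = 0.00433). So it did with library totals (-0.42, adjusted p = 0.0388). A replicate block likewise gave Nr1d1 a call (-0.58, adjusted p = 0.00615).

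In females Clock alone passed for the same substitution, in a comparison that called 41.0% of all genes, 17.8% higher and 23.3% lower. It fell by 0.39 (SE 0.10, adjusted p = 0.00282, edgeR), with 0 of 6 Y665F libraries above the WT mean. Per3 was at 0.62 (95% interval 0.09 to 1.14, adjusted p = 0.0562) and Dbp at 0.28 (-0.40 to 0.96, adjusted p = 0.529). Both lay above the WT mean in 6 of 6 libraries. The ranges did not overlap for 2 members, Clock (lower) and Dbp (higher), against 19.9% of all genes, 9.09% higher and 10.8% lower. When only the 2 groups compared were fitted, Per3 (0.65, adjusted p = 8.90e-05) and Dbp (0.31, adjusted p = 0.000528) passed as well. The intervals of the other 7 genes spanned 0. That of Npas2 was the widest, from -1.54 to 1.43.

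**Figure D2:**
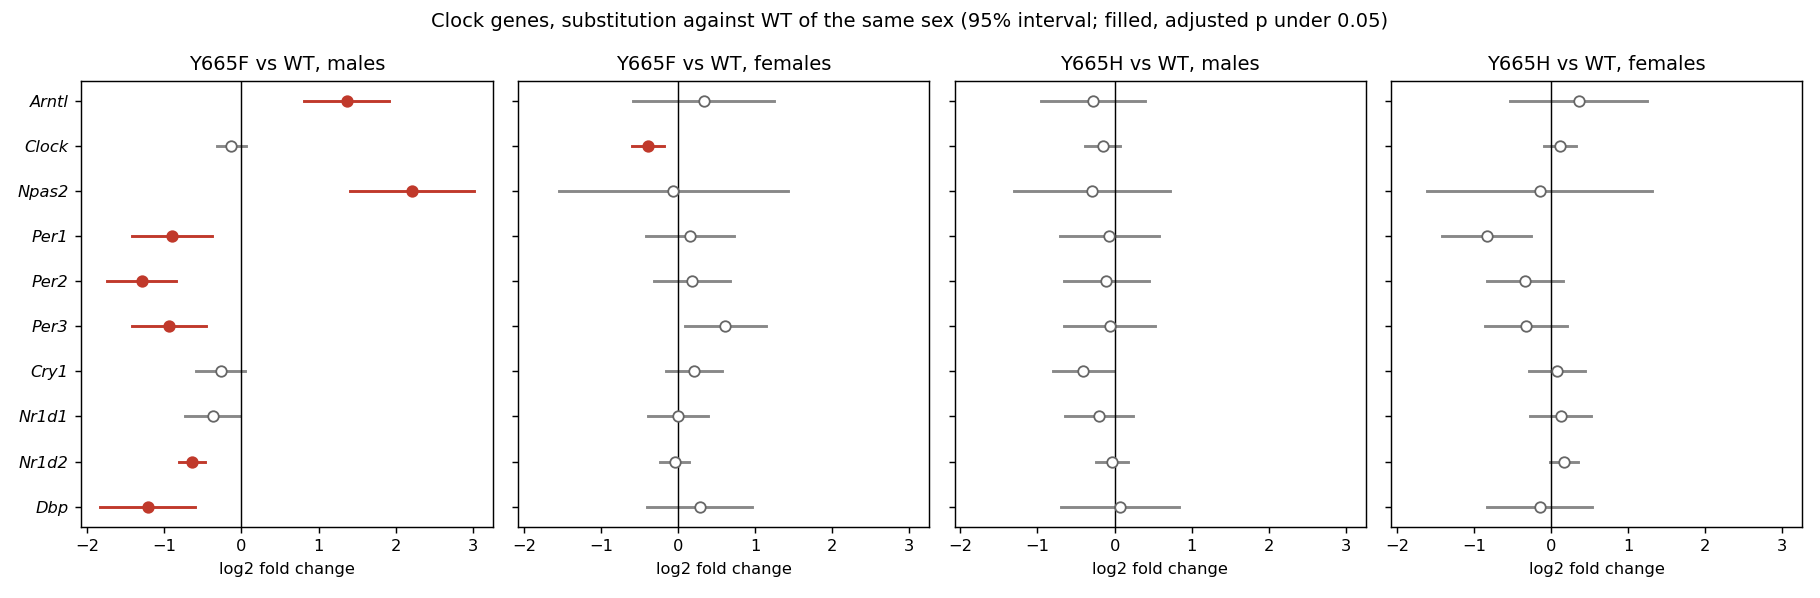
Points are log2 fold changes of each substitution against WT of the same sex, bars are 95% intervals, and filled red points have an adjusted p under 0.05. The filled points are 7 in Y665F males, 1 in Y665F females (Clock, -0.39) and 0 in either Y665H comparison.

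The difference between the male and the female effect of Y665F was tested directly as an interaction. It passed for 6 of the 10 members, 1 positive and 5 negative, against 27.7% of all genes, 16.1% positive and 11.5% negative. On the log2 scale, male effect minus female effect, it was 2.27 for Npas2 (SE 0.83, adjusted p = 0.0391), -1.47 for Per2 (SE 0.33, adjusted p = 0.000962), -1.56 for Per3 (SE 0.35, adjusted p = 0.00107) and -1.05 for Per1 (SE 0.38, adjusted p = 0.0371). It was -0.59 for Nr1d2 (SE 0.12, adjusted p = 0.000471) and -1.50 for Dbp (SE 0.46, adjusted p = 0.0132). For Arntl the interaction was 1.03 (95% interval -0.03 to 2.10, adjusted p = 0.140), so a difference between the sexes was not established for Arntl. The Npas2 call was lost in 11 and the Per1 call in 9 of the 27 fits that left out 1 library, with adjusted p-values up to 0.0899 and 0.0728. With the share of items in no gene as a covariate, 2 members passed in place of 6: Nr1d2 stayed and Nr1d1 entered (-0.88, adjusted p = 0.0365). Npas2 (2.49, adjusted p = 0.0683), Per1 (-0.47, adjusted p = 0.494), Per2 (-0.88, adjusted p = 0.0688), Per3 (-1.15, adjusted p = 0.0502) and Dbp (-1.55, adjusted p = 0.0592) did not.

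For Y665H against WT in males, 0 of the 10 members passed by edgeR, against 8.40% of all genes, 5.22% higher and 3.18% lower. DESeq2 also called 0, and 1 member (Cry1) had an unadjusted p under 0.05. Cry1 was at -0.41 (95% interval -0.80 to -0.01, adjusted p = 0.196), with all 4 Y665H males below every WT male. That was the 1 member whose ranges did not overlap, against 12.5% of all genes, 6.75% higher and 5.74% lower. It passed when only these 2 groups were fitted (-0.40, adjusted p = 0.0148). Intervals for the other genes differed in width, from -0.24 to 0.18 for Nr1d2 and from -0.38 to 0.07 for Clock, but from -0.95 to 0.39 for Arntl and from -0.69 to 0.83 for Dbp. The direction of Dbp depended on single libraries, being 0.34 without replicate 2 and -0.19 without replicate 1 of the Y665H males. Replicate 2 had the most Arntl, Npas2 and Clock and the least Dbp, Per1, Per2, Per3, Nr1d1 and Nr1d2 of its group. Without it, Arntl was at -1.02 in place of -0.28 and Npas2 at -1.21 in place of -0.29. Per1 (from -0.07 to 0.09), Per2 (from -0.11 to 0.06), Per3 (from -0.06 to 0.20) and Nr1d2 (from -0.03 to 0.06) changed sign without it.

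In females Y665H gave 0 calls by edgeR among the 10 members, against 7.50% of all genes, 4.40% higher and 3.10% lower. DESeq2 again gave 0, and 1 member (Per1) had an unadjusted p under 0.05. Per1 was at -0.84 (95% interval -1.42 to -0.26, adjusted p = 0.0640), with 1 of 6 Y665H libraries above the WT mean. It passed without replicate 6 of the Y665H females, the library that made the count 1. That library had 15.3% of its items in no annotated gene, against 7.21% to 10.5% in the rest of its group. Without it 2743 of all genes were called in place of 1136, so the count of 0 members rests partly on that library. No member had ranges that kept apart, against 1.59% of all genes, 0.884% higher and 0.706% lower. The interaction of Y665H with sex gave 0 calls by edgeR and by DESeq2, with 0 members at an unadjusted p under 0.05, against 5.24% of all genes called. Without Y665H male replicate 2 it went from -0.64 to -1.37 for Arntl and from -0.14 to -1.06 for Npas2.

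The substitutions were also set against each other within a sex. The WT comparisons above share their WT libraries, and in the direct comparison they still enter the filter, the scaling and the spread, which were taken over all groups. Of the 10 members, 7 passed in males, 5 higher and 2 lower in Y665H, against 41.7% of all genes, 20.5% higher and 21.2% lower. Relative to Y665F, Arntl was lower in Y665H males by a log2 difference of -1.64 (SE 0.32, adjusted p = 9.31e-05) and Npas2 by -2.51 (SE 0.48, adjusted p = 5.85e-05). Without Y665H replicate 2 these became -2.37 and -3.41. Dbp was higher by 1.29 (SE 0.34, adjusted p = 0.00224), Per2 by 1.19 (SE 0.25, adjusted p = 0.000173) and Nr1d2 by 0.61 (SE 0.09, adjusted p = 2.05e-06). Per3 was higher by 0.88 (SE 0.26, adjusted p = 0.00723) and Per1 by 0.83 (SE 0.29, adjusted p = 0.0192). Both lost their call without Y665H replicate 1, at 0.58 (adjusted p = 0.108) and 0.60 (adjusted p = 0.137). Fitted on these 2 groups alone, Per3 (adjusted p = 0.0516) and Dbp (adjusted p = 0.0526) fell just short. No member had ranges that kept apart, against 24.0% of all genes, 12.2% higher and 11.8% lower.

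In females 4 members passed between the substitutions, 2 higher and 2 lower in Y665H, against 56.5% of all genes, 30.5% higher and 26.0% lower. Clock was higher in Y665H by 0.50 (SE 0.10, adjusted p = 0.000101), in 6 of 6 libraries above the Y665F mean. Per1 was lower, at -0.99 (SE 0.29, adjusted p = 0.00354), and so was Per3, at -0.94 (SE 0.26, adjusted p = 0.00272), both with 0 of 6 libraries above the Y665F mean. Nr1d2 was higher by 0.21 (SE 0.09) at an adjusted p of 0.04999, just under the threshold. That call was lost with RLE scaling, with DESeq2, with no filter on low counts and in 8 of the 12 fits without 1 library. With the share of items in no gene as a covariate, the Clock call was the 1 left, since Per1 (-0.58, adjusted p = 0.138) and Per3 (-0.63, adjusted p = 0.103) did not pass. Per3 and Dbp had ranges that kept apart, both lower, against 24.3% of all genes, 13.4% higher and 10.9% lower, although Dbp did not pass (-0.43, adjusted p = 0.285) except when only these 2 groups were fitted (-0.47, adjusted p = 0.00126).

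Males and females differed in some clock genes in each genotype. In WT, 7 of the 10 passed, 3 higher and 4 lower in males, against 49.7% of all genes, 23.0% higher and 26.8% lower. Arntl was 6.31-fold higher in males (log2 2.66, SE 0.37, adjusted p = 3.68e-07), Clock 2.33-fold (1.22, SE 0.10, adjusted p = 8.93e-12) and Npas2 3.29-fold (1.72, SE 0.56, adjusted p = 0.0114). Males were lower in Per1 (-1.41, SE 0.29, adjusted p = 0.000126), Per3 (-1.13, SE 0.26, adjusted p = 0.000559), Per2 (-0.84, SE 0.24, adjusted p = 0.00467) and Dbp (-0.87, SE 0.34, adjusted p = 0.0326). For Arntl, Clock and Npas2, 6 of 6 males lay above the female mean, and for the other 4 genes none did. Ranges kept apart for 5 members, against 29.8% of all genes, 14.1% higher and 15.7% lower. Dbp lost its call in 5 of the 12 fits without 1 library, at adjusted p-values up to 0.0778. Dbp (-0.80, adjusted p = 0.279) and Npas2 (1.4, adjusted p = 0.212) also lost theirs with the share of items in no gene as a covariate, where Per1 went to -2.21, Per2 to -1.65 and Nr1d1 passed (1.00, adjusted p = 0.00908).

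In Y665F, 9 of the 10 members passed between the sexes, 3 higher and 6 lower in males, against 43.1% of all genes, 22.8% higher and 20.3% lower. Arntl was 12.9-fold and Npas2 15.9-fold higher in males (log2 3.69 and 3.99), and Clock 2.79-fold (1.48). Per3 was 6.45-fold, Per1 5.52-fold, Dbp 5.14-fold and Per2 4.97-fold lower in males, and Nr1d2 1.51-fold lower. Cry1 was lower at -0.46 (SE 0.16, adjusted p = 0.0201), a call lost when libraries were scaled by their totals only (-0.26, adjusted p = 0.178), with a replicate block (-0.28, adjusted p = 0.167) and without Y665F female replicate 2, 3 or 5 (adjusted p up to 0.0664). Nr1d1 did not pass (-0.02, 95% interval -0.38 to 0.33). Ranges kept apart for 8 members, against 18.0% of all genes, 9.47% higher and 8.51% lower. In Y665H, 3 members passed, 2 higher and 1 lower in males, against 30.9% of all genes, 14.2% higher and 16.7% lower. These were Arntl (2.02, SE 0.38, adjusted p = 0.000128), Clock (0.95, SE 0.11, adjusted p = 6.91e-08) and Per3 (-0.87, SE 0.30, adjusted p = 0.0242). Arntl went to 1.29 without Y665H male replicate 2, and Npas2, which did not pass (1.57, adjusted p = 0.0513), to 0.67. Npas2 did pass with DESeq2 (adjusted p = 0.0236), with RLE scaling (adjusted p = 0.0496) and with library totals (adjusted p = 0.0314). The Per3 call was lost without replicate 2 or 3 of the males or replicate 1 of the females (adjusted p up to 0.130), and when only these 2 groups were fitted (-0.84, adjusted p = 0.117). Ranges kept apart for 2 members, Arntl and Clock, both higher, against 13.7% of all genes, 6.20% higher and 7.50% lower. Scaling by totals moved the median of all genes by 0.11 in WT, 0.19 in Y665F and 0.13 in Y665H in the sex comparisons, and no called member changed sign with it. Dbp in WT (-0.76, adjusted p = 0.0621) and Per3 in Y665H (-0.75, adjusted p = 0.0544) lost their calls with that scaling.

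Libraries of 1 group differed among themselves as well. With group means removed, the SD of log2 CPM was 0.841 for Npas2, which ranked 121 of the 15152 genes, 0.694 for Dbp (rank 396) and 0.553 for Arntl (rank 1249). Per1 had 0.526, Per3 0.496, Per2 0.454, Nr1d1 0.365 and Cry1 0.328. Clock (0.184) and Nr1d2 (0.165) lay near the median of all genes, 0.175. Low genes vary more from counting alone. Against genes within 2-fold of its own level, Dbp ranked 21 of 2234, Npas2 23 of 2071, Per1 49 of 3325 and Arntl 56 of 2875. In the same ranking Per3 was 57 of 3089, Nr1d1 69 of 1603, Per2 73 of 3669, Cry1 271 of 3526, Nr1d2 417 of 1903 and Clock 507 of 3394, so that all 10 lay in the upper part. Level here is the mean over all 37 libraries. Female libraries had 1 to 16 counts of Npas2 and 17 to 60 of Arntl, so this ranking does not match the counting noise of those 2 genes. The log2 ratio of Arntl to Dbp ran in Y665F males from -3.26 to 1.84, against -4.79 to -3.02 in WT males, -5.91 to -1.76 in Y665H males and -7.82 to -6.86 in WT females. In the Y665F male with the lowest Dbp (replicate 2, 5.23 CPM), Arntl was 18.8 CPM and Npas2 8.15 CPM, the highest Npas2 of any library. In the one with the highest Dbp (replicate 1, 60.3 CPM), Arntl was 7.12 CPM and Npas2 1.43 CPM. In Y665F males, replicates 2, 4, 5 and 6 had 5.23 to 19.0 CPM of Dbp and 16.5 to 19.7 CPM of Arntl. Replicates 1, 3, 7, 8 and 9 had 36.7 to 60.3 and 6.25 to 12.3 CPM. Npas2, Per3, Nr1d1, Nr1d2 and Cry1 also kept these 2 sets apart, while Per1, Per2 and Clock did not. The sets were read off these values and not tested, and the Y665F male means average over both.

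**Figure D3:**
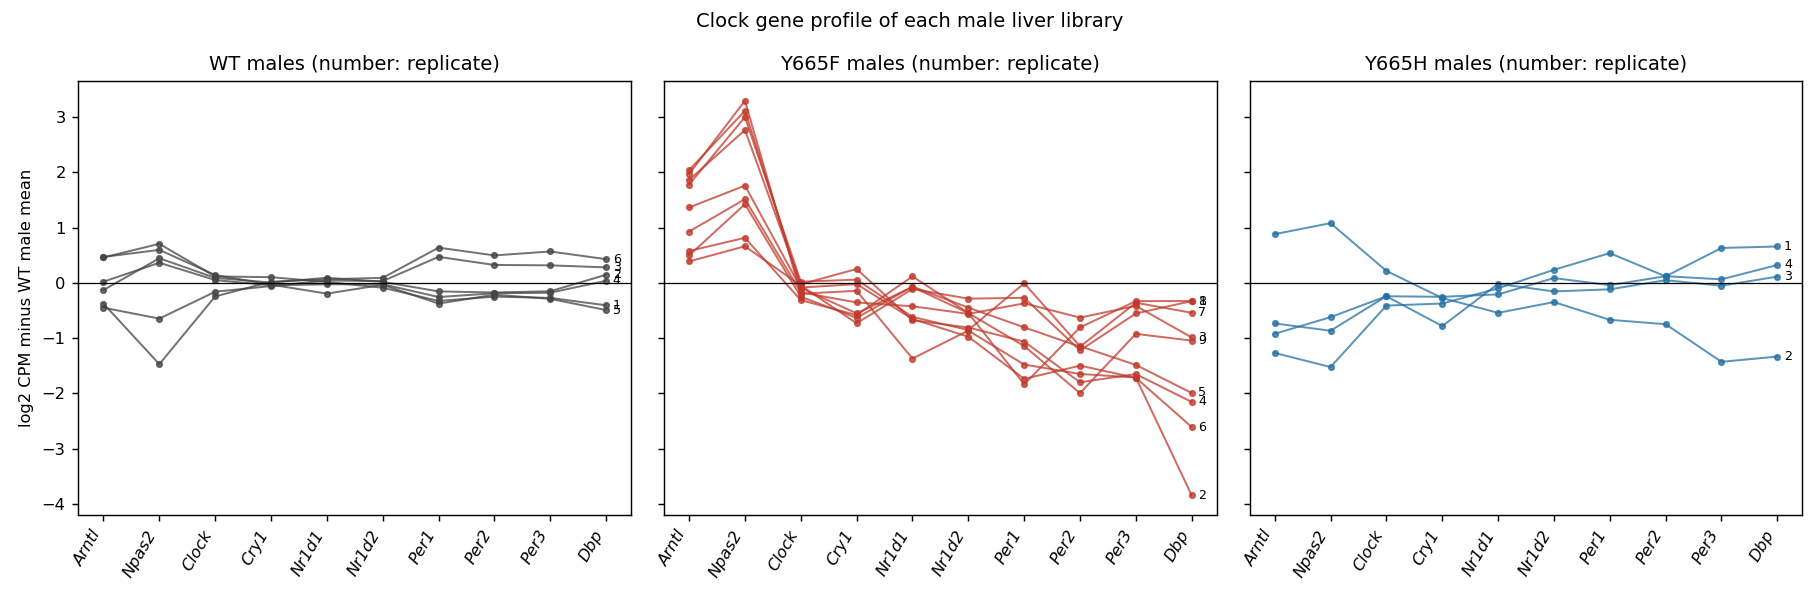
Each line is a male library, showing log2 CPM of the 10 genes minus the WT male mean, with replicate numbers at the right end. Y665F lines rise at Arntl and Npas2 and drop at the Per genes and Dbp by differing amounts, and replicate 2 of the Y665H males (Dbp 30.0 CPM) crosses the other 3.

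**Figure D4:**
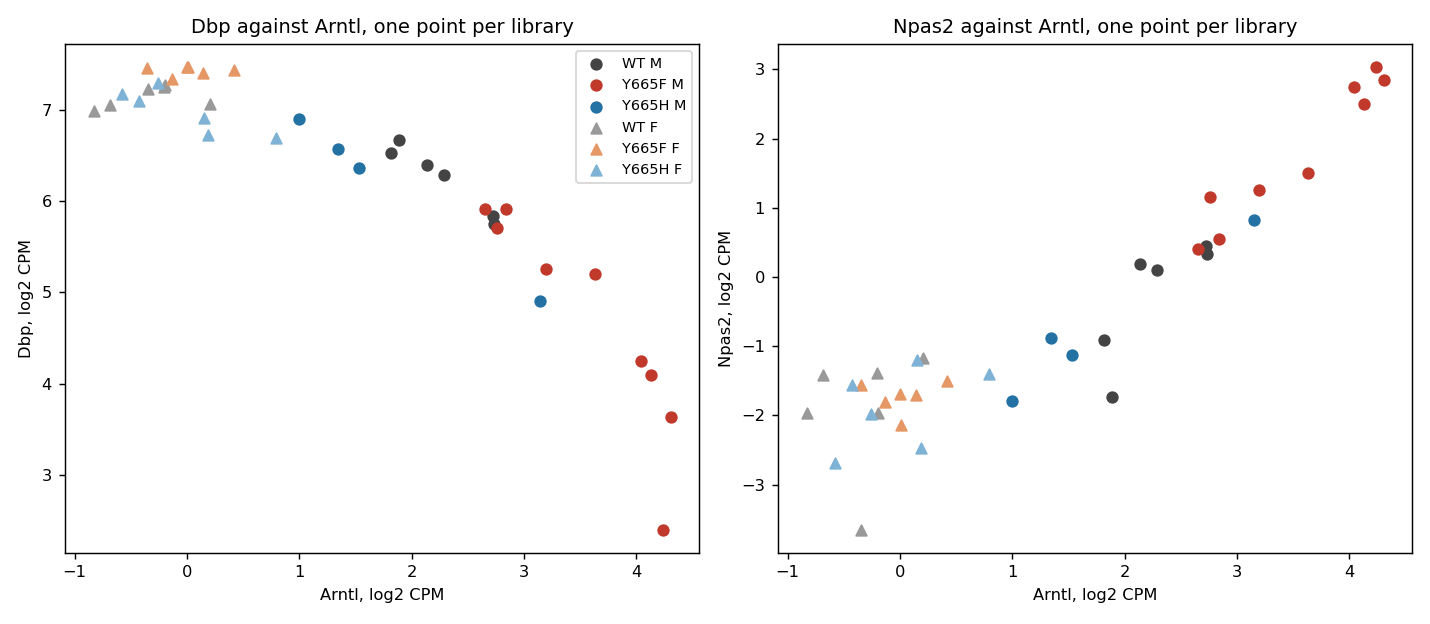
Dots are male and triangles female libraries, with log2 CPM (prior count 2) of Arntl on the horizontal axis against Dbp (left) and Npas2 (right). Y665F males run from the WT males towards high Arntl, high Npas2 and low Dbp, reaching 19.7 CPM of Arntl.

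Pairs of members were correlated over all 37 libraries after removing group means, with a permutation test within groups (100000 resamples, 2-sided) and adjustment over the 45 pairs. Of these, 27 passed, 12 positive and 15 negative. Arntl and Per3 gave the strongest relation, with r = -0.88 (rho = -0.87, permutation p = 2e-05, adjusted p = 0.000112). Per3 and Dbp gave r = 0.82 (rho = 0.84, permutation p = 1e-05, the smallest these resamples can give, adjusted p = 7.50e-05). Arntl and Npas2 gave r = 0.76 (rho = 0.77, permutation p = 2e-05, adjusted p = 0.000112) and Arntl and Dbp r = -0.80 (rho = -0.79, permutation p = 1e-05, adjusted p = 7.50e-05). Without the 2 libraries farthest from the median of the first gene, these 4 relations were -0.83, 0.79, 0.67 and -0.73. The rank correlations of these pairs had permutation p-values of 1e-05 or 2e-05. These r are pooled over the 6 groups and need not hold within each of them. In WT females, for example, the library with the lowest Arntl (0.522 CPM) also had the lowest Dbp (127 CPM). Cry1 had 2 partners of 9, the fewest, and was lower where Nr1d1 was higher (r = -0.75, rho = -0.83, permutation p = 1e-05, adjusted p = 7.50e-05, and r = -0.75 without the 2 farthest).

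Within the sexes, 31 of the 45 pairs passed over the 19 male libraries and 9 over the 18 female libraries. Without the Y665F males, a choice made after their range was seen, 24 of the 45 passed. Of the 27 pairs that passed over all libraries, 23 had the same sign in both sexes and 3 passed in each. Arntl and Per2 were among those, at r = -0.72 in males (adjusted p = 0.00691) and -0.77 in females (adjusted p = 0.0155). So were Cry1 and Nr1d1, at -0.68 and -0.81, and Per2 and Per3, at 0.76 and 0.75. Another 2 pairs passed in each sex with opposite signs. Arntl and Cry1 gave r = 0.65 in males (permutation test, adjusted p = 0.0213) and -0.66 in females (adjusted p = 0.0229), with 0.08 over all libraries. Arntl and Nr1d1 gave -0.73 in males (adjusted p = 0.00144) and 0.60 in females (adjusted p = 0.0430), with -0.22 over all. Nr1d1 and Dbp passed in males only, at 0.93 in males (adjusted p = 0.000180) and -0.04 in females (adjusted p = 0.915). The differences between the sexes in r were not tested. Female libraries held 17 to 60 counts of Arntl and 1 to 16 of Npas2, so the female r of these 2 genes are imprecise.

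**Figure D5:**
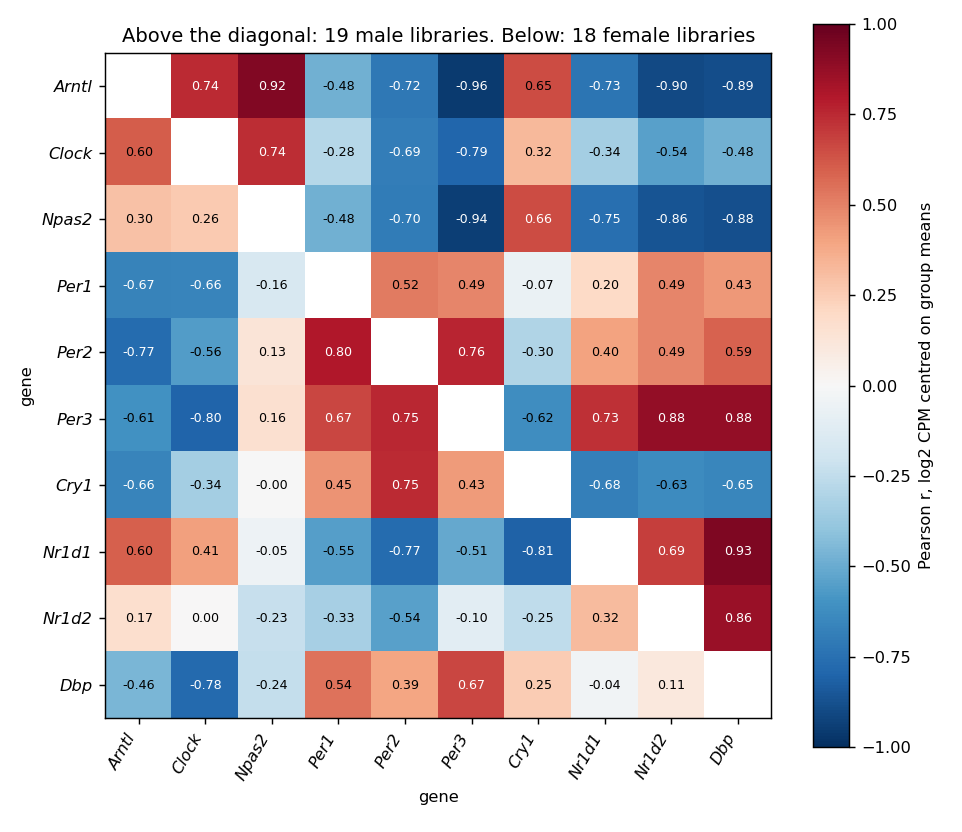
The grid gives Pearson's r of each pair of clock genes on log2 CPM centred on group means, for 19 male libraries above the diagonal and 18 female libraries below. Red is positive and blue negative, and the Arntl row against the Arntl column shows Cry1 and Nr1d1 with opposite signs, 0.65 and -0.73 in males against -0.66 and 0.60 in females.

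Other genes were ranked by likeness to each member, as Pearson's r on the same centred values over 37 libraries, among 11674 other genes with a mean of at least 1 CPM and no predicted name. These r are descriptions with no test, and the points share their groups, libraries and depths. Net1 was most like Arntl (0.88 over all, 0.96 in males and 0.90 in females), followed by Slc45a3 (0.85) and Ypel2 (0.84). Tef, which encodes a PAR bZIP factor of the same family as DBP, was most unlike Arntl (-0.91), followed by Wee1, a cell cycle kinase gene (-0.87), and Gys2, the liver glycogen synthase gene (-0.84). Tef was also the gene most like Per3 (0.93) and most like Dbp (0.90). Dbp was next followed by Bhlhe41 (0.85) and Bcar1 (0.82), and was mirrored by Prepl (-0.81), Chka (-0.80) and Loxl4 (-0.80). Likeness to Dbp was lower in females for Bhlhe41 (0.38, against 0.96 in males) and Bcar1 (0.14, against 0.87), a difference that was not tested. Wee1 (0.87) and Pcsk4 (0.81) came after Tef for Per3. Chka, a choline kinase gene, led for Npas2 (0.79), before Chic1 (0.74) and Asap2 (0.71). In females r was 0.40 for Chka (0.92 in males) and 0.12 for Asap2 (0.93 in males). Clock went most with Insig2 (0.83), Clpx (0.81) and Pid1 (0.76). Per1 had Usp2, a deubiquitinase gene (0.76), Smarca2 (0.74) and Syne2 (0.73). For Per2 they were Dido1 (0.78), Pfkfb3 (0.77) and Sec31a (0.76). Nr1d1 had Jade1 (0.84), Tbc1d10a (0.79) and Tmem143 (0.76), and Nr1d2 had Bnip3 (0.88), Trib3 (0.80) and Bhlhe41 (0.76). Cry1 had the weakest leaders, Ppard (0.70), Lonrf1 (0.65) and Lonrf3 (0.65). Tef, Wee1, Bhlhe41 and Chka thus stood in the lists of more than 1 member.

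Beyond the 10, a list of 24 clock genes (other repressors, the ROR and E4BP4 arm, PAR bZIP factors, kinases and turnover factors, and liver outputs) was counted in the same fit. In Y665F against WT males, 2 were called higher and 13 lower of 24, against 27.2% and 25.3% of all genes, with a median log2 change of -0.19 beside -0.01 for all genes. Ciart, which encodes a repressor of the ARNTL pair, fell by 3.13 (SE 0.36, adjusted p = 5.73e-09), from 5.28 to 16.4 CPM in WT males to 0.613 to 1.9 CPM in Y665F males. Usp2 fell by 2.25 (adjusted p = 3.76e-08), Tef fell by 1.11 (adjusted p = 3.88e-08) and Coq10b, a coenzyme Q gene, fell by 1.09 (adjusted p = 1.61e-07). Ciart thus fell further than any of the 10 members in that comparison. In Y665F females, 5 were higher and 3 lower, against 17.8% and 23.3% of all genes, among them Btrc, a ubiquitin ligase gene (0.32), higher, with Fbxw11 (-0.21) and Hlf, a PAR bZIP gene (-0.46), lower. The interaction of Y665F with sex called 1 positive and 12 negative, against 16.1% and 11.5% of all genes. Among them were Fbxl21 (0.93, adjusted p = 1.01e-05), Usp2 (-2.47, adjusted p = 3.33e-05) and Tef (-1.22, adjusted p = 4.14e-05).

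Y665H gave 0 calls of 24 against WT in males and 1 higher and 1 lower in females, where 4.40% and 3.10% of all genes were called (8.40% in all in males). The female calls were Arntl2, an ARNTL relative (-0.68, adjusted p = 0.00882), and Fbxw11 (0.12, adjusted p = 0.0440). Arntl2 was also the single call in the interaction of Y665H with sex (0.97, adjusted p = 0.00985), which called 5.24% of all genes. Between the substitutions in males, 12 were higher and 1 lower in Y665H, against 20.5% and 21.2% of all genes, led by Wee1 (2.04, adjusted p = 7.24e-08), Ciart (2.89), Coq10b (1.19) and Usp2 (2.21). In females 5 were higher and 8 lower, against 30.5% and 26.0% of all genes, among them Fbxw11 (0.33), Btrc (-0.41) and Arntl2 (-1.05). Between the sexes of WT, 6 were higher and 13 lower in males, against 23.0% and 26.8% of all genes, among them Gsk3b, a kinase gene (0.37), Fbxl21 (-0.77) and Hlf (-0.56). In Y665F there were 4 higher and 15 lower, against 22.8% and 20.3%, among them Usp2 (-3.93), Coq10b (-1.86) and Tef (-1.75). In Y665H there were 5 higher and 8 lower, against 14.2% and 16.7%, led by Gsk3b (0.29), Nampt (-0.69), Coq10b (-0.94) and Arntl2 (0.66). The list medians in these 3 sex comparisons were -0.27, -0.53 and -0.07, beside -0.02, 0.02 and -0.02 for all genes.

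Genes known to follow feeding, stress hormones or temperature were measured beside the clock, because those cues are known to shift clock RNA. In Y665F against WT males, 3 of 8 glucocorticoid-induced genes were called higher and 2 lower, 3 of 8 fasting-induced genes higher and 1 lower, 1 of 6 feeding-induced genes higher, and 1 of 6 heat and cold genes lower. Of all genes, 27.2% were called higher and 25.3% lower in that comparison. Summed CPM of the feeding genes was 1722 to 2539 in WT males and 1153 to 3829 in Y665F males, so the Y665F range held the WT range. That sum is mostly Fasn, and the 1 called feeding gene, the lipase gene Pnpla3, was at 0.651 to 1.36 CPM in WT males and 8.21 to 88.1 CPM in Y665F males (log2 5.39, SE 0.51, adjusted p = 5.83e-11). In Y665F females, 4 of 6 feeding genes were called lower and 1 higher, against 23.3% and 17.8% of all genes, and their sum was 1174 to 1562 CPM against 1450.1 to 3599 in WT females. Of the 8 fasting-induced genes, 1 was called higher and 2 lower in Y665F females. The higher one was Igfbp1, an insulin-repressed gene, at 40.2 to 209.8 CPM against 5.01 to 40.8 CPM in WT females (log2 2.72, SE 0.46, adjusted p = 1.09e-05). Of the 8 glucocorticoid-induced genes, 3 were called higher (Tat, Fkbp5 and Sgk1) and 2 lower (Klf9 and Zbtb16) in Y665F females. Their sum, 3724 to 5366 CPM against 2460.2 to 3598 in WT females, is largely that of Tat, with means of 2652 and 1348 CPM. In Y665H males, 3 of 6 heat and cold genes were called higher, against 5.22% of all genes: the heat shock genes Hspa1a and Hspa1b and the cold-induced Rbm3. The SD exceeded the mean for Hspa1b (18.8 ± 19.4 CPM, n = 4, highest library 47.8) and Hspa1a (1.70 ± 2.40 CPM, n = 4, highest library 5.28), and both ranges overlapped WT males. Rbm3 was at 22.0 to 27.4 CPM against 17.8 to 21.7 CPM in WT males. In the same comparison 1 of 8 glucocorticoid-induced genes was called lower and 0 higher, against 3.18% and 5.22% of all genes. No fasting-induced or feeding-induced gene was called. In Y665H against WT females, 2 of 8 glucocorticoid-induced genes were called lower and 0 higher, against 3.10% and 4.40% of all genes. The 8 summed to 1395 to 2768 CPM in Y665H females, which overlapped the 2460.2 to 3598 CPM of WT females. No fasting-induced, feeding-induced or heat and cold gene was called there. Whether any gene of these lists moved with the clock genes through a shared cause was not tested.

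Summed markers of B and plasma cells, T and NK cells and macrophages were higher in Y665F males than in WT males, without overlap. A sum follows its most abundant genes. Over all libraries Jchain had 12006 counts, with Cd79b next of the B and plasma cell markers at 2570. Clec4f (209849) and Cd5l (186591) had the most counts of the macrophage markers. The 5 B and plasma cell markers summed to 13.4 to 24.1 CPM in Y665F males against 2.52 to 4.34 in WT males, and to 12.0 to 24.2 in Y665F females against 5.71 to 9.11 in WT females. The 7 T and NK cell markers found summed to 5.34 to 13.0 CPM in Y665F males against 2.52 to 4.77 in WT males. For the 7 macrophage markers the sums were 236 to 554 against 142 to 217 CPM, and for the 7 markers of stellate cells and fibroblasts 442 to 648 against 342 to 408 CPM. The 4 neutrophil markers found summed to 0.844 to 4.89 against 0.318 to 0.676 CPM. Sums overlapped for the 6 endothelial markers (253 to 350.0 against 315 to 350.1 CPM) and the 5 cholangiocyte markers (33.8 to 47.3 against 28.1 to 38.5 CPM). Of the 5 erythroid markers, 3 (Hba-a2, Hbb-bs and Hbb-bt) were at 0 in every library and Hba-a1 had 2 counts in all, so their sum is that of Alas2, a heme synthesis gene. It came to 12.0 to 22.5 CPM in Y665F males, 116 to 133 in WT males and 19.6 to 26.9 in WT females. Y665H males were nearer WT, at 4.09 to 6.26 CPM for B and plasma cells, 2.24 to 5.10 for T and NK cells, 213 to 290.4 for macrophages and 96.3 to 118 for Alas2. The part of these cells in the clock gene results was not tested.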

How the data were processed

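Total RNA of frozen mouse liver was depleted of ribosomal RNA and sequenced in read pairs, per the labels' protocols, which name kits of 2 makers without saying which library used which. The deposited files hold raw counts per gene symbol, made by the authors and not normalized. The submitters' processing notes name FastQC 0.11.9, Trimmomatic 0.36, STAR, SAMtools 1.9, Picard 2.9.2, HTSeq 0.9.1 and mm10. The strand setting is not given in the sources used here. The 5 rows that name no gene, 32.4% to 49.9% of items, were left out of library sizes and tests.

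Counts were fitted in R 4.3.3 with edgeR 4.0.16 (filterByExpr by group, minimum count 10 and total 15, which left out 9269 genes; TMM; glmQLFit and glmQLFTest). A single model held all 37 libraries with a mean per group. The Benjamini-Hochberg adjustment ran over all genes of a comparison, with calls made below an adjusted p of 0.05. SE is the absolute log2 fold change over the square root of F, and 95% intervals use it. The code was tested on simulated counts. Libraries of a group differed by more than sampling noise (chi-square per degree of freedom at least 9.08), so none was merged. Correlations used log2 CPM (prior count 2), in Python 3.11.15. Alternatives were RLE factors, library totals, DESeq2 1.42.0, no filter on low counts, fits of the compared groups alone, a replicate block, the share of items in no gene as a covariate, and each library left out. Coordinates are those of GENCODE M21 and RefSeq on GRCm38, the build called mm10. The 10 members, the gene lists and the tests were chosen with earlier results of these data known. Named were all members, up to 4 called clock list genes of smallest adjusted p per comparison, and the 3 most alike genes per member, plus the 3 least alike for Arntl and Dbp. Some genes that this rule names are not reported here. Noct was read from its older symbol, Ccrn4l.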

Additional observations from a re-analysis of the deposited data

Results flagged for a closer look

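In the 60 sets of a clock gene in a group, 2 had a library far from the others by Dixon's criterion. Chance alone marks about 1 in 20 such sets. Both were replicate 2 of the Y665H males. Its Arntl was 8.82 CPM, with the next library at 2.85 CPM, and its Per2 was 21.9 CPM, with the next at 38.1 CPM.

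For 6 genes the Y665F effect differed between the sexes by the interaction test of edgeR. Male minus female log2 effects were 2.27 for Npas2, -1.05 for Per1, -1.47 for Per2, -1.56 for Per3, -0.59 for Nr1d2 and -1.50 for Dbp. Npas2 differed from the other 5 in direction.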

How the results depend on the processing

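Of 44 member results that passed, none changed sign over 975 alternative values, and 16 lost their call in at least 1 alternative. Of 66 that did not pass, 23 changed sign and 16 gained a call in at least 1. The number of members called moved by more than 1.5 times in these cases. In Y665F against WT females it was 1, but 2 with DESeq2, 3 when only the groups compared were fitted, 2 with a replicate block and 1 to 2 without 1 library. In Y665H against WT it was 0 to 1 without 1 library in females, and 1 in males when only the groups compared were fitted. With the share of items in no gene as a covariate it was 1 in place of 4 for Y665H against Y665F in females, 2 in place of 6 for the Y665F interaction and 5 in place of 3 between the sexes of Y665H, where leaving out 1 library gave 2 to 5. The cause was not tested. Of the pairs, 9 passed in the female libraries against 27, and 4 relations changed sign there: Arntl with Nr1d2 (0.166), Npas2 with Per3 (0.158), Nr1d1 with Dbp (-0.0386) and Per3 with Nr1d2 (-0.103). Replicate numbers did not pair the libraries. Deviations of same-numbered libraries correlated at -0.23 to 0.17, over 0.1 in 3 of 48 pairs. A replicate block moved Dbp in Y665F males from -1.22 to -1.80 and gave 8 calls there in place of 7. Counts over all genes moved most for Y665H against WT, from 80 to 2743 around 1136 in females and from 519 to 2186 around 1273 in males. They also moved by over 1.5 times from 794 to 332 and 1655 for the Y665H interaction, from 4190 to 2602 for the Y665F interaction, from 7537 to 4379 between the sexes of WT, and from 4676 to 2142 and 2292 between those of Y665H. Depth limits Npas2 in females, at 1 to 16 counts per library.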
